A study of Homo sapiens with 9 samples.

Results

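The genes described here are 49 members of the epidermal differentiation program and of the S100 family, out of 58051 genes in the count table. They were listed by gene name, with earlier results of these data known: precursors of the cornified envelope, the transglutaminases that crosslink it, its plakin scaffold, S100 and calmodulin-like calcium-binding proteins, kallikrein proteases, protease inhibitors, secreted epidermal proteins and 14-3-3 sigma. All 49 were found in the table, and 30 of them were among the 14513 genes with enough reads to be tested.

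Polyadenylated RNA was sequenced from A431 cells, an epidermoid carcinoma line that carries endogenous mutant p53, to compare gene expression with and without that protein. There were 3 groups of 3 libraries: unmodified parental cells, Ctrl (mutp53) cells made with an empty CRISPR vector, and p53 KO cells made with a CRISPR construct against p53. Ctrl (mutp53) and p53 KO are stable lines that went through transfection and outgrowth as single colonies, so differences between lines and the loss of p53 cannot be told apart from 1 line of each kind. All cells were kept in DMEM with 10% serum and harvested 48 h after settling in 6-well plates, and nothing in the labels states that the 3 libraries of a group came from separate cultures, so p-values measure only the spread between libraries, which may be technical.

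Keratinocytes leaving the basal layer switch on a set of genes that build the cornified envelope, a crosslinked protein shell under the plasma membrane of the outer skin cells. Transglutaminases join involucrin, loricrin and the small proline-rich (SPRR) proteins to a scaffold of envoplakin and periplakin. Kallikreins cut the junctions between the outermost cells so that they can be shed. LEKTI, encoded by SPINK5, inhibits KLK5 and KLK7, while cystatins inhibit cysteine cathepsins. Many of the precursor genes and most S100 genes, which encode small calcium-binding proteins, lie next to each other on chromosome 1 in the epidermal differentiation complex.

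Library totals ran from 19783778 to 29840452 counts, and the 49 members took between 0.36% and 0.524% of them. SH3BGRL, the gene the study followed, was lower in every p53 KO library (0.943 to 1.54 CPM, counts scaled to a common library size by TMM) than in any other (7.12 to 11.7 CPM). All 10 keratinocyte markers were detected, although KRT14 had at most 3 counts in any parental or Ctrl (mutp53) library and 7 to 13 in p53 KO libraries. Immune markers never passed 10 counts. The markers of other cell types that did were 1 of 6 for fibroblasts, 1 of 4 for melanocytes and 2 of 4 for endothelium. Summed melanocyte markers were 0.923 to 1.03 CPM in parental, 1.51 to 1.68 in Ctrl (mutp53) and 0.761 to 0.992 in p53 KO libraries, and summed endothelial markers 0.383 to 0.646, 0.816 to 1.16 and 0.403 to 0.532 CPM, with PMEL (0.70, adjusted p 0.0201) and PECAM1 (1.68, adjusted p 0.025) higher in Ctrl (mutp53) than in parental cells by edgeR. Their part in the results was not tested. Ctrl (mutp53) replicate 1 and p53 KO replicate 3 stood apart from the other libraries in how counts depended on gene length: genes with up to 1 kb of summed exons lay 0.32 and 0.178 log2 units above the mean of the 9 libraries there, against -0.175 to -0.123 in the parental libraries. For the members as a set, the S100 genes and the kallikreins, values with that trend removed are given as well.

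Across the 30 tested members, 11 were higher and 3 lower in p53 KO than in parental cells at an adjusted p of at most 0.05 (edgeR quasi-likelihood test, Benjamini-Hochberg over all genes), where 9.77% of all tested genes were higher and 8.36% lower. That is 36.7% and 10% of the tested members. Their median log2 fold change was 0.29, against 0.0065 for all genes tested. The tested members are short, with a median of 1677 bases of summed exons against 4837 for all tested genes. Genes of 1 to 2 kb with a mean log2 CPM above 3, whatever their function, had a median of 0.167. With the length trend removed from each library, the members' median was 0.20. S100A9 and SPRR1B also passed a log2 fold change of 1.5, which 1.95% of all genes did. Both had single-digit counts in parental cells. Neither would have entered the test without the p53 KO libraries, the group where they are high. TGM5, also among the higher members, entered the test through the edited lines, where it is high. The calls of S100A9, SPRR1B and TGM5, and the share of higher members and the median that hold them, are therefore not read as support. Without parental replicate 3, the number of higher members was 7. Shares of all genes are given for the main fit only, so counts in alternative fits show only how the calls moved.

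Measured against Ctrl (mutp53) cells, 8 members were higher and 6 lower in p53 KO cells, or 26.7% and 20%, where 15% of all genes were higher and 14.2% lower. SPRR1B and S100A9 are among the higher members here too, so the share of higher members is not read as support. The members' median log2 fold change was 0.0052, close to the 0.0060 of all genes. With the length trend removed it was 0.05. CALML3 was the member past 1.5, as were 3.29% of all genes. Leaving out p53 KO replicate 3 or Ctrl (mutp53) replicate 2 left 5 higher members. Between 2 and 3 members passed 1.5 without any 1 of the 3 parental libraries, of the 3 Ctrl (mutp53) libraries, or of p53 KO replicates 2 and 3.

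The controls also differed from each other. Ctrl (mutp53) cells had 11 members higher and 2 lower than parental cells, or 36.7% and 6.67%, where 10.6% of all genes were higher and 9.69% lower, and the members' median was 0.30. With the length trend removed that median was 0.23, and genes of 1 to 2 kb with a mean log2 CPM above 3 had a median of 0.247. TGM5, S100A9 and S100P passed 1.5, as did 1.94% of all genes. TGM5 entered the test through the edited lines, where it is high, and S100A9 through p53 KO. Neither call, nor the share of higher members that holds them, is read as support. The number of higher members fell to 5 without parental replicate 1, to 5 without parental replicate 2 and to 6 without parental replicate 3; 1 member passed 1.5 without parental replicate 1, and 1 was lower without Ctrl (mutp53) replicate 2. The 3 comparisons share libraries in pairs, so each gene's values are set side by side below without counting agreement between them as support.

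Against both controls in the same direction, 6 members were higher in p53 KO cells (SPRR1B, S100A4, S100A9, KLK7, KLK8 and KLK10) and 2 were lower (CALML3 and KLK5), or 20% and 6.67% of the tested members, where 6.46% of all tested genes were higher against both and 5.25% lower. SPRR1B and S100A9 are counted here although they entered the test through p53 KO, the group where they are high. The share of higher members is therefore not read as support. The total of 8 became 5 without parental replicate 2, parental replicate 3, p53 KO replicate 3 or Ctrl (mutp53) replicate 2, and 13 without Ctrl (mutp53) replicate 1. The tested members that passed in none of the 3 comparisons were IVL, CNFN, TGM1, S100A2, S100A3, S100A10, S100A14, DMKN and SFN. Of these, S100A2 passed against Ctrl (mutp53) (-0.50) and between the controls (0.60) without Ctrl (mutp53) replicate 2, and S100A10, S100A14 and DMKN passed when other single libraries were left out.

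**Figure D1:**
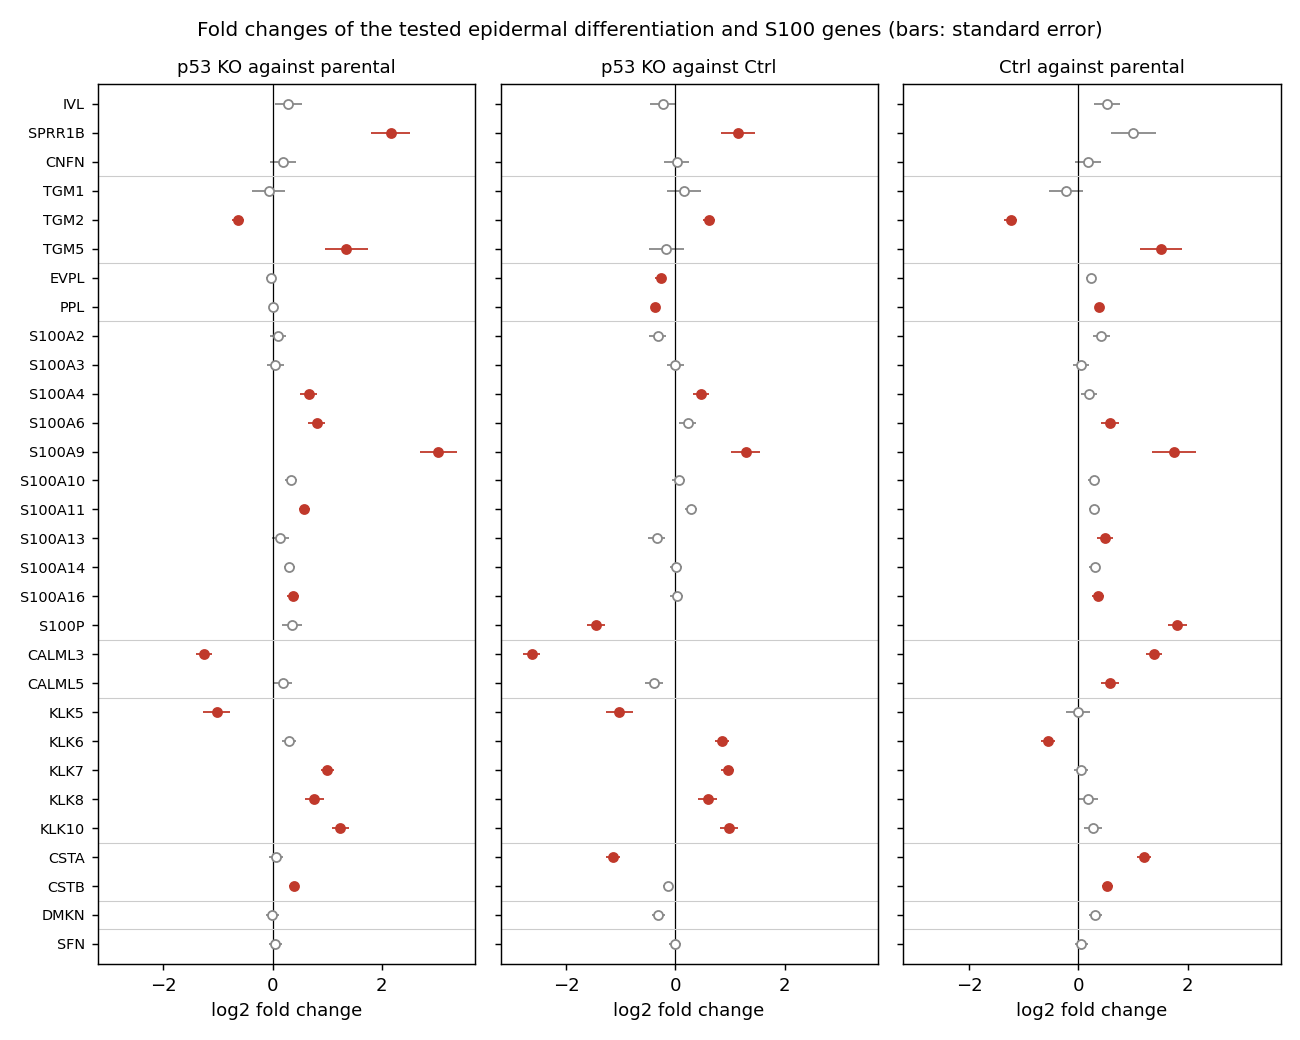
Log2 fold change (x axis) of the 30 tested members, 1 per row and grouped by role, in 3 comparisons; points are fitted values, bars 1 standard error, and filled red points have an adjusted p of at most 0.05. S100A9 lies farthest to the right against parental cells at 3.03, and CALML3 farthest to the left against Ctrl (mutp53) cells at -2.63.

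Levels per kilobase spread widely among the members. Averaged over the 9 libraries, S100A10 (partner of annexin A2) stood highest at 457 RPKM (CPM divided by the summed exon length in kilobases), followed by S100A11 at 405, S100A14 at 390 and SFN at 365 RPKM. KLK6 was the highest kallikrein at 182 RPKM, while KLK5 stood at 0.853 and TGM5 at 0.176 RPKM. Late envelope genes were at or near the limit of detection: LOR, FLG2, HRNR, RPTN, LCE3D and LCE3E, which encode loricrin, filaggrin-like and late envelope proteins, had 0 counts in all 9 libraries, and a count of 0 allows up to 3 counts per library. That limit covers counting error only.

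Among the 15 envelope precursors, 3 had enough reads to be tested: IVL (involucrin), CNFN (cornifelin) and SPRR1B. SPRR1B, a proline-rich crosslinking substrate also called cornifin B, had 3, 6 and 7 counts in the parental libraries, 6, 12 and 15 in Ctrl (mutp53) and 29, 22 and 24 in p53 KO. Every p53 KO library lay above every library of both controls. SPRR1B entered the test through p53 KO, the group where it is high, so its fitted values are descriptive only. SPRR1B rose by a log2 fold change of 2.16 (SE 0.36, adjusted p 0.00184) against parental and by 1.15 (SE 0.31, adjusted p 0.0160) against Ctrl (mutp53) cells, while Ctrl (mutp53) against parental gave 1.01 (SE 0.42, adjusted p 0.105). The call against Ctrl (mutp53) was lost without p53 KO replicate 3 (1.03) and without Ctrl (mutp53) replicate 2 (1.11). IVL stood at 0.995, 0.846 and 0.692 CPM in parental, 1.17, 1.12 and 1.37 in Ctrl (mutp53) and 0.805, 1.29 and 1.04 in p53 KO cells, with p53 KO overlapping both controls.

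The other SPRR members had too few reads for the filtered test and are given by their counts. SPRR2A had 4, 0 and 0 counts in parental, 4, 1 and 2 in Ctrl (mutp53) and 20, 5 and 13 in p53 KO libraries, a ratio of normalized sums of 9.2 against parental (95% exact interval 3.31 to 35.5) and 5.29 against Ctrl (2.33 to 14). For SPRR1A the counts were 2, 2 and 1, then 2, 1 and 0, then 5, 7 and 6, with ratios of 3.48 (1.25 to 12) and 5.85 (1.71 to 31). SPRR3 had 0, 2 and 2, then 2, 0 and 1, then 10, 5 and 5 counts, with ratios of 4.84 (1.62 to 19.5) and 6.5 (1.93 to 34.1). In SPRR1A and SPRR3 the p53 KO libraries lay above all 6 control libraries. For SPRR2A this held in raw counts, but after scaling for depth p53 KO replicate 2 (0.190 CPM) lay below Ctrl (mutp53) replicate 1 (0.204 CPM). The intervals cover counting error only. When genes were tested without the filter on low counts, SPRR2A passed against both controls (adjusted p 0.00020 and 0.0016). SPRR1A and SPRR3 passed against Ctrl (mutp53) (0.0385 and 0.0236) but not against parental cells (0.165 and 0.0662). That setting also gained 13 calls in members already tested and lost 1. For S100A2 in Ctrl (mutp53) against parental, the edgeR adjusted p went from 0.0741 to 0.000112 at log2 fold changes of 0.42 and 0.41. The unfiltered calls are therefore not read as support. SPRR2D and SPRR2E had at most 4 counts in a library; SPRR2 genes are close copies of each other, so how shared reads were assigned among them is uncertain. Summed over the 6 SPRR members, counts were 11, 10 and 10 in parental, 16, 14 and 18 in Ctrl (mutp53) and 70, 42 and 49 in p53 KO libraries.

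**Figure D2:**
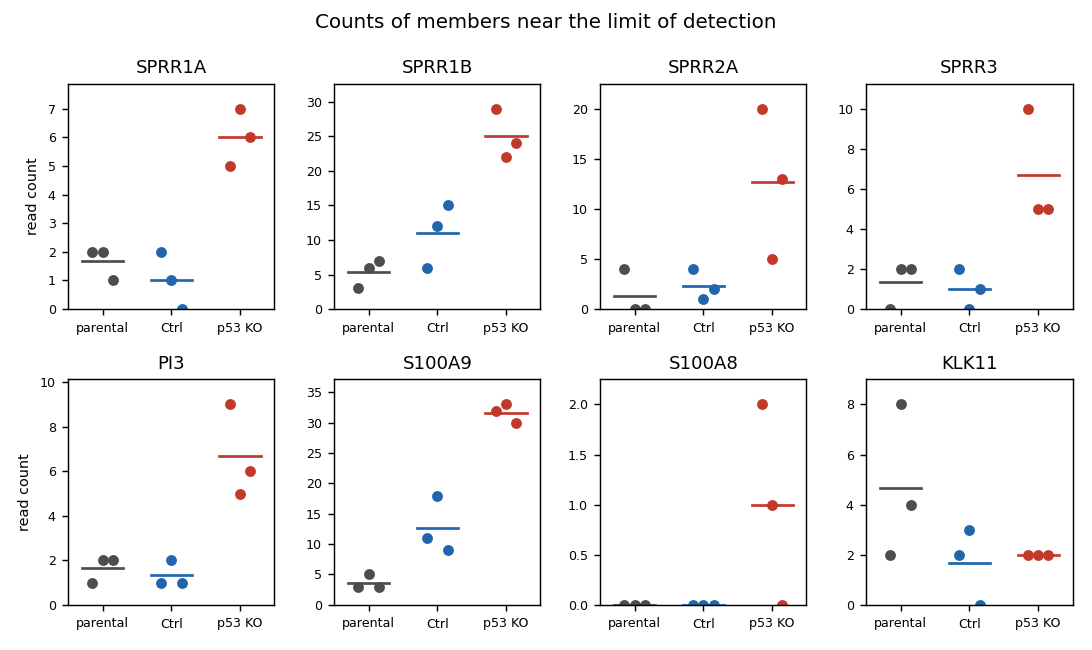
Raw read counts (y axis, linear, separate scale per gene) in each of the 9 libraries by group for 8 members with low counts; points are libraries and lines group means. In SPRR1A, SPRR1B, SPRR2A, SPRR3, PI3 and S100A9 each p53 KO library lies above all parental and Ctrl libraries in raw counts, which is not so for S100A8 and KLK11; scaled for depth, SPRR2A in p53 KO replicate 2 falls below Ctrl replicate 1 (0.190 and 0.204 CPM).

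The SPRR promoters share letters that can be read directly. RefSeq windows of 250 bases upstream of the transcription start (GRCh38.p14) were matched to 30 of the 49 members by symbol, and both strands were searched for the AP-1 motif TGANTCA, the factor family of Fos and Jun proteins, for the TATA box with its letters TATAAA, for the CCAAT box and for the box with letters CACCC. AP-1 letters were found in 12 of the 30 member windows, against 6.57% of all 35116 windows, the TATA box in 13 against 10.7%, the CCAAT box in 8 against 32% and the CACCC box in 23 against 54.7%. The other members, SPRR2D and SPRR2E among them, had no unique window for their symbol and were left out. The 35116 windows were not limited to symbols with a unique window, so these shares are descriptive and not a matched comparison. All 4 SPRR members with a unique window held TGANTCA, and SPRR1B held it at 2 positions. The windows below run 5′ to 3′ on the gene's own strand with AP-1 and TATAAA matches in capitals; the 4 SPRR genes are shown because their summed counts were higher in p53 KO cells than in either control, IVL because it holds the same motifs and did not pass in any comparison, and CALML3 because it differed most from Ctrl (mutp53) cells and has neither motif in this window.
SPRR1B, chr1:153030953-153031202, plus strand: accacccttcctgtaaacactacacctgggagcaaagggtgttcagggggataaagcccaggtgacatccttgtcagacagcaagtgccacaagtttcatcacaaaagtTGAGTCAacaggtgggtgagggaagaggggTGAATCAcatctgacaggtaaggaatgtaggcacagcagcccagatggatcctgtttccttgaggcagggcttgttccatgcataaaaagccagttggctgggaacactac
SPRR1A, chr1:152983831-152984080, plus strand: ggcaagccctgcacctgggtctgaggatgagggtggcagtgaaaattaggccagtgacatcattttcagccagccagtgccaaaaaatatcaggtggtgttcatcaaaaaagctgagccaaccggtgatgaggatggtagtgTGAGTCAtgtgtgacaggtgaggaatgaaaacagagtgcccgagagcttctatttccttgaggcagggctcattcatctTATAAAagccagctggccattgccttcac
SPRR2A, chr1:153057513-153057762, minus strand: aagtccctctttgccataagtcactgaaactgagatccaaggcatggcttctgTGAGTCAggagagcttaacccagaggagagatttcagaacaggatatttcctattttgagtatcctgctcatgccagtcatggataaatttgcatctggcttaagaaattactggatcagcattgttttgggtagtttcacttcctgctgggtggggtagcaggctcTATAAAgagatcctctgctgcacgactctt
SPRR3, chr1:153001499-153001748, plus strand: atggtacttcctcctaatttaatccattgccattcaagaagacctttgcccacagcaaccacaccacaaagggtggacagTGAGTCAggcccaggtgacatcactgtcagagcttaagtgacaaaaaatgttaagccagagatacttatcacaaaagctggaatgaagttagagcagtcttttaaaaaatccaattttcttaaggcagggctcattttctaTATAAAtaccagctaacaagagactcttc
IVL, chr1:152908296-152908545, plus strand: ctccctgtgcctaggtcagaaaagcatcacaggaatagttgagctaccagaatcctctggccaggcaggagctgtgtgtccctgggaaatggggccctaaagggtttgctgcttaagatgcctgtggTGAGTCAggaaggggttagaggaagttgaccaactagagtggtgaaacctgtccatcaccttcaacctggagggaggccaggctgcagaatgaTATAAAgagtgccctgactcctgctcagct
CALML3, chr10:5524711-5524960, plus strand: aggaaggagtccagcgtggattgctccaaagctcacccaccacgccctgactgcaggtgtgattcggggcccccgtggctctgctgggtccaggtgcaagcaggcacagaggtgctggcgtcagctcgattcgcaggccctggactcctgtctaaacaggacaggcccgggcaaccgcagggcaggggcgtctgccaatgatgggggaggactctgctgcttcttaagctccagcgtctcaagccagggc
The AP-1 letters began 141 and 111 bases before the start in SPRR1B, 108 in SPRR1A, 197 in SPRR2A, 170 in SPRR3 and 123 in IVL. These are descriptions of the sequence, and no binding was measured.

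Of the 4 transglutaminases, TGM3 had a single count in all and 3 were tested, and they did not move together. TGM2, the widely expressed tissue transglutaminase, stood at 38.4, 37.3 and 30.9 CPM in parental, 16.1, 15.1 and 14.1 in Ctrl (mutp53) and 20.2, 24.6 and 24.4 in p53 KO cells, so that p53 KO lay between the controls with no overlap. TGM2 fell by 0.62 on the log2 scale against parental (SE 0.11, adjusted p 0.00276) and rose by 0.61 against Ctrl (mutp53) cells (SE 0.11, adjusted p 0.00201). TGM5, an epidermal transglutaminase, had 3, 8 and 11 counts in parental, 18, 20 and 26 in Ctrl (mutp53) and 27, 17 and 15 in p53 KO libraries. TGM5 entered the test through the edited lines, where it is high, so its fitted values are descriptive only. It was higher than parental in both edited lines, by 1.35 (SE 0.40, adjusted p 0.0374) in p53 KO and by 1.51 (SE 0.39, adjusted p 0.0215) in Ctrl (mutp53), and differed by -0.16 (SE 0.32, adjusted p 0.749) between them. Its p53 KO call was lost without any 1 of parental replicate 1, parental replicate 2 or the 3 p53 KO libraries (0.94 to 1.46), and its Ctrl call without parental replicate 1 (1.10) or parental replicate 2 (1.53). TGM1, the membrane-bound keratinocyte enzyme, stood at 0.929 ± 0.0881 CPM in parental, 0.803 ± 0.271 in Ctrl (mutp53) and 0.881 ± 0.266 in p53 KO cells (SD, n = 3), with overlapping libraries.

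Both plakins of the envelope scaffold were lower in p53 KO than in Ctrl (mutp53) cells. PPL (periplakin) stood at 205, 179 and 176 CPM in parental, 228, 246 and 255 in Ctrl (mutp53) and 195, 197 and 174 in p53 KO cells, falling by 0.37 on the log2 scale against Ctrl (mutp53) (SE 0.08, adjusted p 0.00673) and giving 0.02 (SE 0.08) against parental. EVPL (envoplakin) stood at 99.3, 92 and 79.6, then 115, 98 and 107, then 84.2, 89.6 and 91.1 CPM, with -0.27 (SE 0.09, adjusted p 0.0488) against Ctrl (mutp53). The EVPL call sat at the threshold: it was lost in 11 of 17 alternative analyses, among them those without parental replicate 1 or 2, any p53 KO library, or Ctrl (mutp53) replicate 1 or 3 (-0.29 to -0.22). The PPL call between the controls, 0.38 in Ctrl (mutp53) against parental, was lost without parental replicate 2 (0.35) and without parental replicate 3 (0.34).

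S100 genes made up most of the members' reads. Summed over the 13 S100 members, levels were 1919 to 1959 CPM in parental, 2393 to 2766 in p53 KO and 2175 to 3057 in Ctrl (mutp53) libraries, with Ctrl (mutp53) replicate 1 the highest. Of the 11 tested, 5 were higher in p53 KO than in parental cells and 5 in Ctrl (mutp53) than in parental cells, and against Ctrl (mutp53) 2 were higher and 1 lower in p53 KO. Over all tested genes, 9.77% and 10.6% were higher in the first pair of comparisons, and 15% higher and 14.2% lower in the last. S100A9, which entered the test through p53 KO, is among the higher genes in each comparison, so these counts are not read as support. The S100 median log2 fold changes were 0.36, 0.36 and 0.02 in these 3 comparisons.

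The tested S100 genes are short, with a median of 971 bases of summed exons against 4837 for all tested genes. In the 140 well-expressed genes of up to 1 kb, whatever their function, the median log2 fold change was 0.197 for p53 KO against parental, 0.242 for Ctrl (mutp53) against parental and -0.0117 for p53 KO against Ctrl (mutp53). With the length trend removed from each library, the S100 medians became 0.25, 0.19 and 0.09, and 6, 4 and 3 S100 genes were higher. Shares of all genes under this setting are not given. S100A9 then gave 2.93 against parental and 1.30 against Ctrl (mutp53), S100A6 0.70 and 0.29, and S100P 0.25 and -1.43, on the same side of the threshold as before. The removal of the trend was added after the data were seen.

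**Figure D3:**
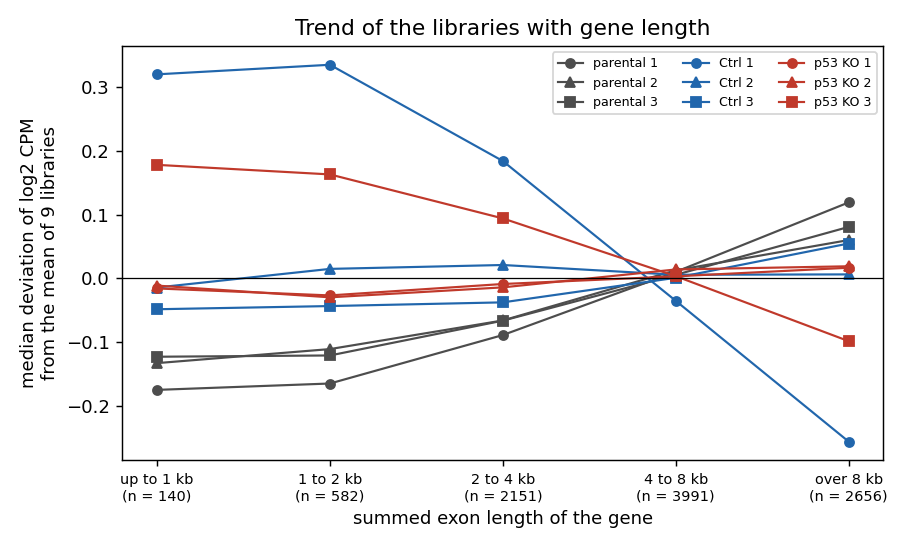
Median deviation of log2 CPM from the mean of the 9 libraries (y axis) in 5 bins of summed exon length (x axis), 1 line per library, for genes with a mean log2 CPM above 3. Ctrl replicate 1 and p53 KO replicate 3 run from 0.32 and 0.178 in the shortest bin to -0.256 and -0.0985 in the longest, and the parental libraries run the other way.

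S100A9, which pairs with S100A8 to form calprotectin, had the largest fold change of any tested member against parental cells, from a very low level. It had 3, 5 and 3 counts in parental, 11, 18 and 9 in Ctrl (mutp53) and 32, 33 and 30 in p53 KO libraries, with no overlap between any of the groups. S100A9 entered the test through p53 KO, the group where it is high, so its fitted values are descriptive only. The log2 fold change was 3.03 (SE 0.34, adjusted p 0.000203) against parental, 1.29 (SE 0.27, adjusted p 0.00384) against Ctrl (mutp53), and 1.75 (SE 0.40, adjusted p 0.0134) for Ctrl (mutp53) against parental. The last of these was lost without parental replicate 1 (1.58) or Ctrl (mutp53) replicate 2 (1.53). S100A8 had 2, 1 and 0 counts in p53 KO libraries and 0 in the 6 controls, and S100A7 (psoriasin) had 1 count in all.

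S100A4, a protein linked to cell motility, also rose against both controls. It stood at 22.7, 24 and 22.1 CPM in parental, 34.1, 23 and 21.9 in Ctrl (mutp53) and 37.8, 33 and 38.1 in p53 KO cells, where Ctrl (mutp53) replicate 1 reached into the p53 KO range. The log2 fold change was 0.66 (SE 0.15, adjusted p 0.0108) against parental and 0.47 (SE 0.15, adjusted p 0.0356) against Ctrl (mutp53), and 0.55 and 0.52 with the length trend removed. The call against parental was lost without parental replicate 3 (0.63), and that against Ctrl (mutp53) in 10 of 17 alternatives, including those without any 1 of the 3 parental or 3 p53 KO libraries, or without Ctrl (mutp53) replicate 2 or 3 (0.35 to 0.53).

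S100A6 (calcyclin) and S100A11, an envelope crosslinking substrate, rose against parental cells. S100A6 stood at 182, 206 and 205 CPM in parental, 387, 231 and 270 in Ctrl (mutp53) and 327, 334 and 380 in p53 KO cells, a log2 fold change of 0.81 (SE 0.16, adjusted p 0.00467). S100A11 stood at 219, 205 and 211, then 305, 245 and 229, then 316, 292 and 341 CPM, a log2 fold change of 0.58 (SE 0.10, adjusted p 0.00296). Neither passed against Ctrl (mutp53) (0.23 and 0.28), but both did without Ctrl (mutp53) replicate 1 (0.47 and 0.42), the library with the steepest length trend. With the trend removed, S100A11 passed against Ctrl (mutp53) (0.32, adjusted p 0.00461) and S100A6 did not (0.29, adjusted p 0.0672). S100A6 was also higher in Ctrl (mutp53) than in parental cells by 0.58 (SE 0.16, adjusted p 0.0262), a call lost without any 1 of the 3 parental libraries (0.52 to 0.61).

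S100P was highest in Ctrl (mutp53) cells. It stood at 7.65, 7.19 and 9.37 CPM in parental, 36.5, 23.2 and 25.2 in Ctrl (mutp53) and 9.96, 9.43 and 11.6 in p53 KO cells, so that Ctrl (mutp53) stood above both other groups. S100P fell by 1.45 on the log2 scale in p53 KO against Ctrl (mutp53) (SE 0.17, adjusted p 0.000107) and gave 0.36 (SE 0.18, adjusted p 0.207; 0.36 and passing without Ctrl (mutp53) replicate 1) against parental, while Ctrl (mutp53) exceeded parental by 1.81 (SE 0.18, adjusted p 7.4e-05). S100P lies on chromosome 4, outside the chromosome 1 cluster.

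Smaller differences were seen in S100A16 and in S100A13, a carrier in the release of FGF1. S100A16 stood at 239, 235 and 248 CPM in parental, 361, 292 and 273 in Ctrl (mutp53) and 292, 290 and 356 in p53 KO cells, with 0.38 (SE 0.11, adjusted p 0.0374) for p53 KO and 0.36 (SE 0.11, adjusted p 0.0437) for Ctrl (mutp53) against parental. The first call was lost in 8 of 17 alternatives, including those without any 1 parental or p53 KO library or Ctrl (mutp53) replicate 2 (0.27 to 0.43), and the second in 10, including those without any 1 parental library, p53 KO replicate 1 or 2, or Ctrl (mutp53) replicate 1 or 2 (0.23 to 0.40) and the one with the length trend removed (0.19). S100A13 stood at 14.6, 16.7 and 14.8, then 26.5, 21.1 and 17.2, then 17, 14.9 and 19.1 CPM, with 0.49 (SE 0.15, adjusted p 0.0423) for Ctrl (mutp53) against parental, lost in 9 of 17 alternatives, including those without any 1 parental library, p53 KO replicate 1 or 2, or Ctrl (mutp53) replicate 1 or 2 (0.32 to 0.55). S100A13 shares 235 exon bases with S100A1 on the opposite strand. It also shares 536, 24.2% of its exons, with an unnamed gene on the same strand, so its counts are uncertain. S100A10 and S100A14 missed the threshold against parental at 0.34 (SE 0.11, adjusted p 0.0579) and 0.31 (SE 0.11, adjusted p 0.0673), and both passed without Ctrl (mutp53) replicate 1 (0.34 and 0.31) or replicate 3 (0.33 and 0.30). With the length trend removed S100A10 passed (0.23, adjusted p 0.0408) and S100A14 did not (0.20, adjusted p 0.056). S100A2 and S100A3 gave 0.10 (SE 0.15) and 0.05 (SE 0.15).

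CALML3, a calmodulin-like protein of epithelia, was the tested member with the largest difference between p53 KO and Ctrl (mutp53) cells. It stood at 41.9, 39.4 and 43 CPM in parental, 136, 101 and 88.1 in Ctrl (mutp53) and 18.2, 15.5 and 18.7 in p53 KO cells, and no library of a group overlapped another group. CALML3 fell by 1.25 on the log2 scale against parental (SE 0.15, adjusted p 0.000277) and by 2.63 against Ctrl (mutp53) (SE 0.15, adjusted p 8.28e-07), and was 2.61-fold higher in Ctrl (mutp53) than in parental cells. It kept its call in all 17 alternatives of each comparison, with values of -2.77 to -2.44 against Ctrl (mutp53). CALML3 lies on chromosome 10 at 5524961 to 5526771 (GRCh38, plus strand) and on the opposite strand shares 595 exon bases, 32.9% of its exons, with an unnamed gene and 354 with CALML3-AS1. Its neighbour CALML5, the calmodulin-like skin protein, stood at 107, 116 and 116, then 213, 172 and 124, then 125, 112 and 148 CPM, with 0.58 (SE 0.17, adjusted p 0.0312) for Ctrl (mutp53) against parental, lost without any 1 parental library or Ctrl (mutp53) replicate 2 (0.55 to 0.60). CALML5 in p53 KO gave 0.18 (SE 0.16, edgeR adjusted p 0.479) against parental and -0.40 (SE 0.16, edgeR adjusted p 0.0927) against Ctrl (mutp53). The latter passed without Ctrl (mutp53) replicate 3 (-0.59) and with the length trend removed (-0.35, edgeR adjusted p 0.0419).

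**Figure D4:**
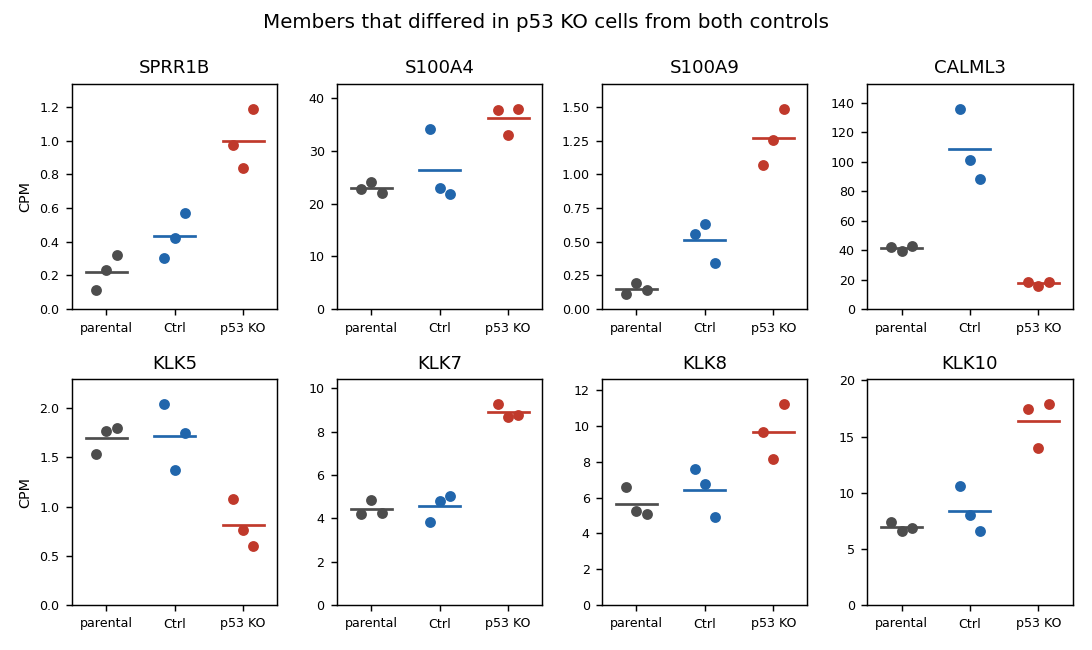
CPM (y axis, linear from 0, separate scale per gene) in each library for the 8 members that differed in the same direction from both controls; points are libraries and lines group means. CALML3 and KLK5 are lowest in p53 KO cells and the other 6 highest, and for S100A4 Ctrl replicate 1 at 34.1 CPM overlaps the p53 KO libraries.

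Of the 5 kallikreins tested, 3 rose and 1 fell against parental cells, where 9.77% of all genes were higher and 8.36% lower, and 4 rose and 1 fell against Ctrl (mutp53) cells, where 15% were higher and 14.2% lower, with median log2 fold changes of 0.77 and 0.86. Between the controls KLK6 was the 1 that passed, and the median was 0.04. With the length trend removed the medians were 0.67, 0.93 and -0.07. The members lie in the order KLK5, KLK6, KLK7, KLK8, KLK10 and KLK11 on chromosome 19 from 50943303 to 51028039 (GRCh38).

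KLK5 and KLK7 encode the trypsin-like and chymotrypsin-like proteases of the outer skin, and they went in opposite directions. KLK7 stood at 4.21, 4.85 and 4.24 CPM in parental, 3.82, 4.78 and 5.03 in Ctrl (mutp53) and 9.26, 8.67 and 8.78 in p53 KO cells. It rose by 1.00 on the log2 scale (SE 0.12, adjusted p 0.000294) against parental and 0.96 (SE 0.12, adjusted p 0.000151) against Ctrl (mutp53), and the controls overlapped. KLK5 stood at 1.53, 1.77 and 1.8 CPM in parental, 2.04, 1.37 and 1.75 in Ctrl (mutp53) and 1.07, 0.761 and 0.595 in p53 KO cells, with every p53 KO library below every control library. KLK5 fell by 1.02 on the log2 scale against each control (SE 0.24 in both, adjusted p 0.0138 and 0.00841). The call against parental was lost without parental replicate 2 (-0.998), parental replicate 3 (-0.99) or p53 KO replicate 2 (-0.96).

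KLK10 and KLK8 (neuropsin) rose against both controls. KLK10 stood at 7.38, 6.54 and 6.87 CPM in parental, 10.6, 8.04 and 6.56 in Ctrl (mutp53) and 17.4, 14 and 17.9 in p53 KO cells, a log2 fold change of 1.24 (SE 0.16, adjusted p 0.00045) against parental and 0.98 (SE 0.16, adjusted p 0.000881) against Ctrl (mutp53). KLK8 stood at 6.62, 5.23 and 5.07, then 7.6, 6.78 and 4.92, then 9.66, 8.14 and 11.2 CPM, with 0.77 (SE 0.18, adjusted p 0.0121) and 0.59 (SE 0.18, adjusted p 0.0261). In both genes all p53 KO libraries lay above all control libraries. The KLK8 call against parental was lost without parental replicate 2 (0.71) or parental replicate 3 (0.70), and that against Ctrl (mutp53) without p53 KO replicate 1 or 3 or Ctrl (mutp53) replicate 2 or 3 (0.42 to 0.64). KLK8 shares 747 exon bases, 40.1% of its exons, with an unnamed gene on the same strand and 204 with KLK9, so its counts are uncertain. On the opposite strand, KLK5, KLK6 and KLK10 share 12.2%, 20.3% and 6.32% of their exons with unnamed genes.

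KLK6 (neurosin), the abundant member of the cluster, stood at 367, 378 and 368 CPM in parental, 317, 231 and 209 in Ctrl (mutp53) and 441, 441 and 486 in p53 KO cells. It was higher in p53 KO than in Ctrl (mutp53) cells by 0.86 (SE 0.13, adjusted p 0.000521) and differed by -0.56 between Ctrl (mutp53) and parental, lower in Ctrl (SE 0.13, adjusted p 0.0129), which was lost without Ctrl (mutp53) replicate 2 (-0.50). Against parental cells the p53 KO value was 0.30 (SE 0.13, adjusted p 0.133), with all p53 KO libraries above all parental ones, and it passed without Ctrl (mutp53) replicate 1 (0.30, adjusted p 0.00139). KLK11, left out of the test, had 14 counts over the parental, 5 over the Ctrl (mutp53) and 6 over the p53 KO libraries.

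**Figure D5:**
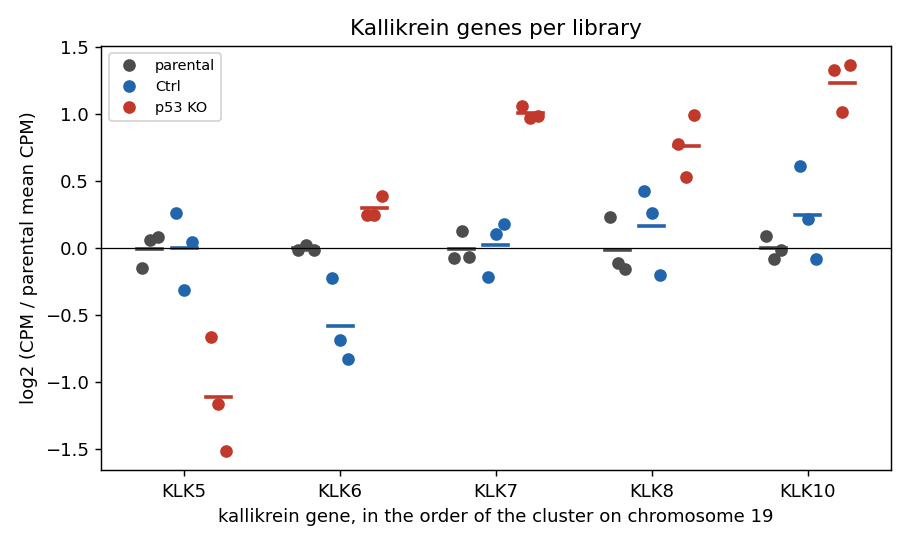
Log2 ratio of each library's CPM to the mean parental CPM (y axis) for the 5 tested kallikreins in cluster order (x axis); points are libraries, short lines group means and the line at 0 the parental mean. KLK7, KLK8 and KLK10 lie above both controls in p53 KO cells and KLK5 below both.

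Inhibitors of proteases gave each its own pattern. CSTA (cystatin A), an inhibitor of cysteine cathepsins that is also built into the envelope, stood at 23, 24.3 and 26.4 CPM in parental, 68.3, 53.1 and 48.6 in Ctrl (mutp53) and 27.9, 24 and 25.3 in p53 KO cells. CSTA fell by 1.14 on the log2 scale in p53 KO against Ctrl (mutp53) (SE 0.13, adjusted p 6.78e-05) and gave 0.07 (SE 0.13, adjusted p 0.749) against parental. Its relative CSTB (cystatin B) stood at 263, 270 and 270, then 443, 368 and 350, then 344, 328 and 384 CPM, with 0.40 (SE 0.09, adjusted p 0.0138) for p53 KO and 0.53 (SE 0.09, adjusted p 0.00311) for Ctrl (mutp53) against parental. The p53 KO call of CSTB was lost without parental replicate 1 (0.38), parental replicate 3 (0.40) or p53 KO replicate 3 (0.33). PI3 (elafin), an elastase inhibitor, had 1, 2 and 2, then 1, 2 and 1, then 9, 5 and 6 counts. The ratio was 3.87 (1.41 to 13.2) for p53 KO to parental and 4.87 (1.63 to 19.6) to Ctrl (mutp53). Without the filter on low counts PI3 passed against Ctrl (mutp53) (adjusted p 0.0410) and not against parental (0.103). As that setting gained calls in members with many reads too, the PI3 call is not read as support.

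Among the secreted proteins DMKN (dermokine) was tested and stood at 59.4 ± 0.826 CPM in parental, 73.8 ± 13.3 in Ctrl (mutp53) and 59.3 ± 5.48 in p53 KO cells (SD, n = 3), passing in none of the comparisons. It passed against Ctrl (mutp53) without p53 KO replicate 3 (-0.39) or Ctrl (mutp53) replicate 3 (-0.40), and between the controls without the latter (0.40). SBSN (suprabasin) and KRTDAP had at most 6 and 3 counts in a library, and FLG (filaggrin) had 1 count in all. SFN (14-3-3 sigma), an adaptor known as a target of wild-type p53, stood at 466 ± 10 CPM in parental, 484 ± 83.8 in Ctrl (mutp53) and 482 ± 53.6 in p53 KO cells, with log2 fold changes of 0.05 (SE 0.12) and -0.01 (SE 0.12) for p53 KO against parental and against Ctrl (mutp53).

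Of the 49 members, 26 lie in the chromosome 1 cluster, within 1648 kb, and 12 of these were tested. Their median log2 fold changes were 0.36 for p53 KO against parental, 0.04 against Ctrl (mutp53) and 0.39 for Ctrl (mutp53) against parental. The 55 other tested genes within 1 Mb of the cluster had medians of 0.03, -0.05 and 0.10. They were not matched to the members for gene length. Well-expressed genes of up to 1 kb, whatever their function, had medians of 0.197, -0.0117 and 0.242. Around the kallikrein cluster, 25 other tested genes within 1 Mb had medians of 0.09, 0.17 and -0.05, where the 5 kallikreins had 0.77, 0.86 and 0.04. These medians describe each set and were not tested against each other.

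Other genes of the same program were listed by function. Of 51 further genes of the same families, 2 (S100A5 and CALML4) had enough reads to be tested. Among 46 regulators of epidermal differentiation, 41 were tested: 10 were higher and 4 lower in p53 KO than in parental cells, 8 higher and 16 lower than in Ctrl (mutp53) cells, and 16 higher and 4 lower in Ctrl (mutp53) than in parental cells. The shares of all genes were 9.77% and 8.36%, 15% and 14.2%, and 10.6% and 9.69%. The regulators' median log2 fold changes were 0.11, -0.14 and 0.22. GRHL3, a transcription factor needed for the skin barrier, stood at 13.7, 14.9 and 15.2 CPM in parental, 26.5, 25.5 and 26.6 in Ctrl (mutp53) and 3.12, 4.49 and 2.98 in p53 KO cells. It fell by 2.04 on the log2 scale against parental (SE 0.14, adjusted p 6.29e-06) and by 2.88 against Ctrl (mutp53) (SE 0.14, adjusted p 1.78e-07). ZNF750, a driver of terminal differentiation, fell by 1.78 against Ctrl (mutp53) (SE 0.25, adjusted p 0.000292) and gave -0.49 (SE 0.28, adjusted p 0.252) against parental, and NOTCH3 fell by 1.28 (SE 0.08, adjusted p 1.81e-06) against Ctrl (mutp53) and gave 0.02 against parental. Other regulators went up: OVOL2 rose by 1.45 (SE 0.19, adjusted p 0.000434) against parental and gave 0.34 (SE 0.17, adjusted p 0.158) against Ctrl (mutp53), and SOX9 rose by 1.21 (SE 0.10, adjusted p 8.37e-06) against Ctrl (mutp53) and gave 0.25 (SE 0.10, adjusted p 0.101) against parental. CEBPA rose by 0.79 against parental (SE 0.14, adjusted p 0.00247) and fell by 0.42 against Ctrl (mutp53) (SE 0.13, adjusted p 0.0297).

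Of 24 serpins, cystatins and related inhibitors, 14 were tested: 6 were higher and 1 lower against parental, 8 higher and 2 lower against Ctrl (mutp53), and 2 higher and 6 lower in Ctrl (mutp53) against parental. The shares of all genes were those given for the regulators, and the median log2 fold changes were 0.43, 0.81 and -0.24. SERPINB9, an inhibitor of granzyme B, stood at 5.62, 5.69 and 5.35 CPM in parental, 0.051, 0.281 and 0.305 in Ctrl (mutp53) and 4.13, 5.36 and 4.37 in p53 KO cells, so that the Ctrl (mutp53) libraries, with 1 to 8 counts, stood below both other groups. SLPI, the secretory leukocyte protease inhibitor, rose by 1.71 against parental (SE 0.15, adjusted p 4.72e-05) and fell by 0.43 against Ctrl (mutp53) (SE 0.14, adjusted p 0.0346). The 1 inhibitor lower against parental was CST6 (cystatin E/M), named here after its values were seen: it stood at 16.8, 16.7 and 17.7, then 21.1, 16 and 12.8, then 4.16, 5.32 and 6.6 CPM, and fell by 1.69 against parental (SE 0.19, adjusted p 0.00022) and by 1.64 against Ctrl (mutp53) (SE 0.19, adjusted p 0.000103). SPINK5, which encodes the LEKTI inhibitor of KLK5 and KLK7, had 7, 11 and 14 counts in parental, 3, 1 and 2 in Ctrl (mutp53) and 42, 33 and 32 in p53 KO libraries. It entered the test through p53 KO, the group where it is high, so its values are given as counts and no fold change is read from them. SERPINB3 entered the same way, with 4, 0 and 2 counts in parental, 1, 1 and 2 in Ctrl (mutp53) and 17, 12 and 13 in p53 KO libraries. SPINK5 and SERPINB3 are among the inhibitors counted as higher against both controls. The counts of higher inhibitors and the medians that hold them are therefore not read as support.

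Of 44 genes of barrier lipids and terminal differentiation, 25 were tested: 6 were higher in p53 KO than in parental cells, 4 higher and 12 lower than in Ctrl (mutp53) cells, and 15 higher and 2 lower in Ctrl (mutp53) than in parental cells. The shares of all genes were again 9.77% higher and 8.36% lower, 15% and 14.2%, and 10.6% and 9.69%. The median log2 fold changes of the list were 0.10, -0.35 and 0.50. SPNS2 had 2, 3 and 4 counts in parental, 21, 11 and 9 in Ctrl (mutp53) and 44, 31 and 31 in p53 KO libraries. It entered the test through p53 KO, where it is high, and is counted as higher in each comparison. The counts of higher genes that hold SPNS2 are therefore not read as support. CASP14, the caspase that processes filaggrin, stood at 1.11, 1.19 and 1.25 CPM in parental, 6.42, 7.38 and 6.25 in Ctrl (mutp53) and 36.7, 27.1 and 25.8 in p53 KO cells, with no overlap between groups. Its log2 fold change was 4.66 (SE 0.18, adjusted p 1.77e-07) against parental and 2.16 (SE 0.14, adjusted p 1.81e-06) against Ctrl (mutp53). SCEL (sciellin), an envelope precursor, stood at 6.58, 6.89 and 8.17, then 26.1, 36.2 and 32.1, then 14.1, 12.9 and 12.9 CPM. It was higher in p53 KO than in parental cells by 0.89 (SE 0.14, adjusted p 0.00117) and fell by 1.24 against Ctrl (mutp53) (SE 0.13, adjusted p 3.91e-05). KRT4, a keratin of internal stratified epithelia, was 6.31-fold higher in p53 KO (adjusted p 3.4e-07) and 9.36-fold higher in Ctrl (mutp53) (adjusted p 1e-07) than in parental cells.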

How the data were processed

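The authors prepared strand-specific polyadenylated RNA libraries from 3 parental, 3 Ctrl (mutp53) and 3 p53 KO samples of A431 and sequenced them as 75 bp pairs. They aligned reads to GRCh38 with STAR 2.5.1b and deposited gene-level integer counts from featureCounts on Ensembl release 85; the strand setting is not given in the sources used here, so overlapping genes on opposite strands are uncertain. The members and gene lists were chosen with earlier results of these data known.

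All 58051 genes entered R 4.3.3. Genes were filtered with filterByExpr (minimum count 10), scaled by TMM and tested with the edgeR 4.0.16 quasi-likelihood test on all 9 libraries, 1 mean per group, with Benjamini-Hochberg adjustment over 14513 genes and a threshold of 0.05. DESeq2 1.42.0, other filters, 2-group fits, a replicate block, leaving out each library and, added after seeing the data, removal of the length trend were alternatives. RPKM and exon lengths used GENCODE release 44 on GRCh38. The edgeR step was tested on simulated data. The check of the targeted gene is not reported here. Depth limits low genes: intervals on count ratios are exact at 95% and cover counting error only. Every member is named; per-library values are given for members with an adjusted p of at most 0.05 in at least 1 comparison, and of each other list at most 6 such genes with the largest fold change were eligible.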

Additional observations from a re-analysis of the deposited data

Results flagged for a closer look

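CALML3 was the 1 member that passed in opposite directions against parental cells in the 2 edited lines, lower in p53 KO (-1.25) and higher in Ctrl (mutp53) (log2 fold change 1.39). The difference between these effects, which is the direct comparison of p53 KO with Ctrl (mutp53), was -2.63 on the log2 scale (SE 0.15, edgeR quasi-likelihood test, adjusted p 8.28e-07), and all 3 p53 KO libraries were lower than all 3 Ctrl (mutp53) libraries. Groups of 3 libraries were too small for a test of single outlying samples.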

How the results depend on the processing

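Of 41 gene values called in the report, each for 1 member in 1 comparison, none changed direction in any alternative. DESeq2 on all 9 libraries lost 0 of these calls and gained 2, DESeq2 on the compared groups lost 1, and removing the length trend lost 1 and gained 4. Leaving out a library lost between 3 and 12 calls. Counts of members that moved by over 1.5 times were as follows. Shares of all genes under these settings are not given, so the counts show only how the calls moved. Leaving out 1 library gave 7 to 16 higher members for p53 KO against parental, 5 to 12 against Ctrl (mutp53), 5 to 15 for Ctrl (mutp53) against parental with 1 to 2 lower, and 5 to 13 changed against both controls; members past a log2 fold change of 1.5 numbered 1 to 3 against Ctrl (mutp53) and 1 to 3 between the controls. With at least 10 counts in every library, 0 members passed 1.5 against parental and 1 between the controls, because SPRR1B, S100A9 and TGM5 left the test. Without the filter, 13 members were higher against Ctrl (mutp53) and 5 passed 1.5; the members gained were SPRR1A, SPRR2A, SPRR3 and PI3, newly tested, and S100A11, which was tested before. At a fold threshold of 1 in place of 1.5, 7, 6 and 6 members passed in the 3 comparisons. Fitting only the compared groups gave 6 higher members for Ctrl (mutp53) against parental in edgeR, with S100A9 no longer among the genes tested, and 11 in DESeq2; the cause was not tested.

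Deviations of same-numbered libraries correlated at -0.574 to 0.109. With 3 libraries per group and length trends in single libraries, these values cannot tell whether replicate numbers paired the samples. With the replicate number as a block, 9 members were higher against parental, 8 against Ctrl (mutp53) and 7 for Ctrl (mutp53) against parental, and 7 of the 41 calls were lost.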
